A study of Mus musculus with 11 samples.

Results

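The chemokine ligands and receptors of the mouse were followed in bulk RNA-seq of livers in which YAP, the transcriptional coactivator at the end of the Hippo pathway, had been switched on for 3 or 7 days. Members were taken by symbol: every row of the table named Ccl or Cxcl with a number, Cx3cl1, Xcl1, and the receptors named Ccr or Cxcr with a number that are reported here. This gave 51 genes of 20893, of which 37 encode ligands and 14 encode receptors. All 11 mice were C57BL/6 and carried ROSA26-rtTA-IRES-EGFP, a tetracycline-dependent activator that stays silent until Cre removes its stop. According to the methods, Cre was driven by the albumin promoter, which is active in hepatocytes and in cells derived from their progenitors. The 4 control mice were WT, without tetYAP, and ate doxycycline food for 7 days. The tetYAP mice, whose transgene encodes an activated mutant of YAP, ate it for 3 days (4 mice) or for 7 days (3 mice). No group analysed here had doxycycline alone for 3 days, and the labels give no ages. Each library is 1 homogenized liver, so RNA of all liver cells was read together.

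Chemokines are small secreted proteins that bind glycosaminoglycans on vessels and matrix and guide leukocytes toward their source. They signal through receptors that couple to inhibitory G proteins, and each leukocyte type carries its own set. In the liver, Kupffer cells, sinusoidal endothelium, stellate cells, bile duct cells and hepatocytes can all make ligands, while most of the receptors sit on the cells that are recruited. In bulk RNA, fewer cells of a type and less RNA per cell cannot be told apart.

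Levels are eRPKM, the exon reads of a gene divided by its length in kilobases and by the size of the library. Depth was 1251606 to 5497308 reads on genes in control livers, 2660750 to 3682176 after 3 days and 5313742 to 5944116 after 7 days. A count of 0 allows up to 3 reads, which for a transcript of 1 kb is 2.33 eRPKM in the shallowest library (control liver 4) and 0.489 in the deepest, and such limits cover counting error only. By reads on Xist and Ddx3y, 2 of 4 control livers, 2 of 4 3-day livers and 3 of 3 7-day livers came from females, so sex and depth moved together with 7 days of induction. The labels of 3-day livers 1 and 4 and of 7-day liver 2 carry a suffix MF, whose meaning is not stated. No control carries it. Yap1 itself was 13.9 to 21.1 eRPKM in control livers, 15.3 to 19.3 after 3 days and 17.4 to 19.01 after 7 days (limma adjusted p = 0.832 and 0.917), so this gene gave no check of the transgene.

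After 7 days the CC receptors Ccr1 and Ccr3, the CXC receptor Cxcr4 and the ligands Ccl2, Ccl3, Ccl6, Ccl9, Ccl24, Cxcl14 and Cx3cl1 were called higher. Cxcl9 and Cxcl11 were called lower. Of these calls, only those of Ccr1, Ccr3, Ccl6 and Ccl24 were kept under all 25 alternative fits. Of the 51 members, 38 reached 0.5 eRPKM in at least 3 libraries and were tested, 28 ligands and 10 receptors. Genes counted as called when the limma adjusted p, over all 14244 genes tested, was below 0.01 and the log2 fold change was more than 0.5 from 0. Fold changes were taken between log2(eRPKM + 0.5) values, so those of low genes are understated. Of 38 members, 10 (26.3%) were called higher, beside 18% of all genes, and 2 (5.26%) were called lower, beside 5.77%. Every 7-day liver lay above every control for 15 members (39.5%, beside 36.7% of all genes) and below for 3 (7.895%, beside 13.3%). The median log2 fold change was 0.61 over the tested members and 0.26 over all genes. After quantile normalization, 7 members were called higher and 4 lower, and with median-ratio size factors 9 and 3. No member was called lower without control liver 1 or 2 or without 7-day liver 1 or 3. Since 7 of the 38 (Ccl1, Ccl7, Ccl12, Ccl17, Ccr1, Cxcl2 and Cxcl5) passed the filter only through 7-day livers, these shares and the tests of these 7 are a description.

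After 3 days limma called no member, beside 0.0421% of all genes called higher and 0% called lower. At an unadjusted p under 0.05 it gave 2 of 38 members higher and 5 lower, beside 1119 higher and 599 lower of all 14244 genes. With limma-voom on the recovered reads 0 members were called, beside 1 of all genes. All 3-day livers lay above all controls for 2 members, Ccr3 and Ccl9 (5.26%, beside 3.38% of all genes), and below them for 1, Cxcl14 (2.63%, beside 2.25%). From 3 to 7 days, 8 members (21.05%) rose, beside 14% of all genes, and 1 (2.63%) fell, beside 5.31%. Both times are set against the same 4 controls, so their values are given side by side.

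**Figure D1:**
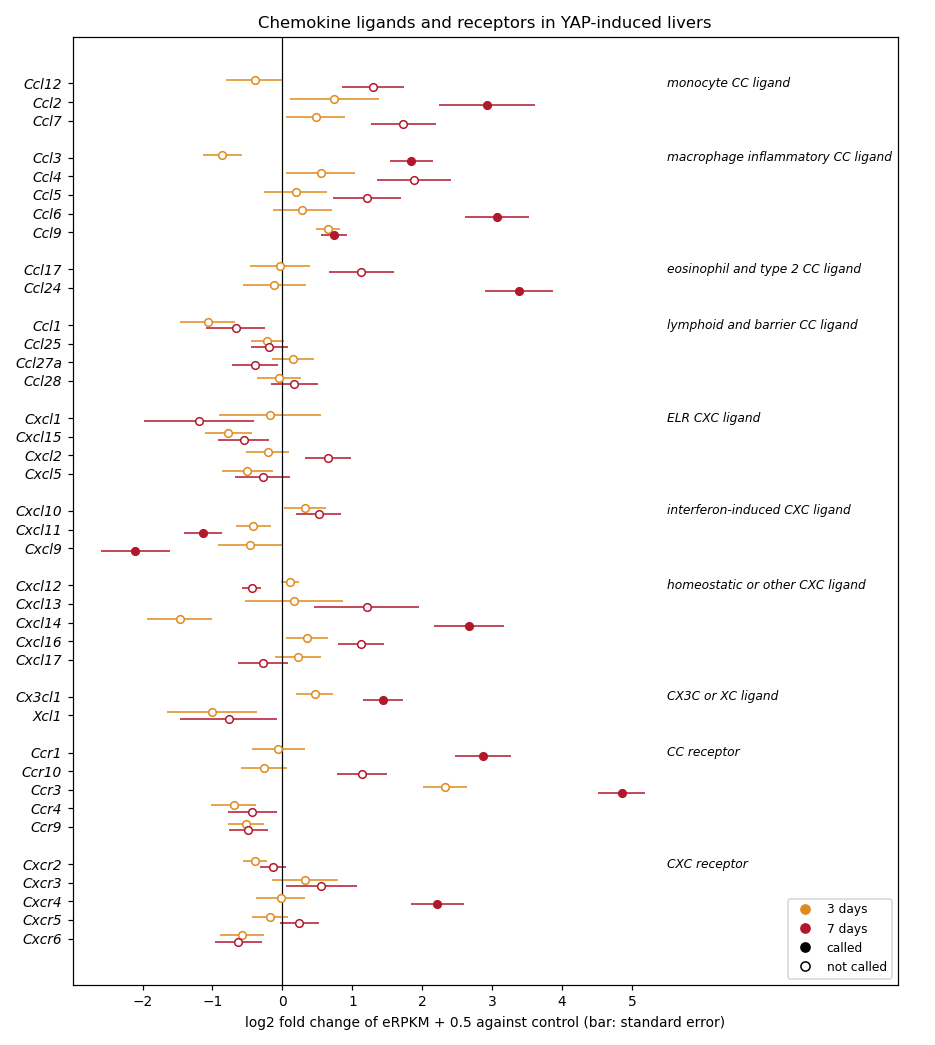
Log2 fold change of eRPKM + 0.5 against control for the 38 tested members, grouped by role, at 3 and 7 days, with bars of 1 standard error and filled points for calls. No 3-day point is filled, Ccr3 stands farthest right at both times (2.32 and 4.85), and the filled points left of 0 are Cxcl9 (-2.10) and Cxcl11 (-1.14).

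Among the 10 tested receptors the largest change was that of Ccr3, the receptor for the eotaxins, known from eosinophils (chromosome 9, 123936703 to 123946421, plus strand; all positions are on mm9). Control livers 1 to 4 held 0.38, 0.485, 0.616 and 0.474 eRPKM, which is 2 to 9 reads. The 3-day livers held 2.78, 3.6, 3.71 and 9.9 eRPKM (25 to 123 reads), and the 7-day livers 28.6, 24.5 and 31.04 (492 to 556 reads). The groups did not overlap, and 3-day liver 4 stood far above the other 3-day livers. After 3 days Ccr3 differed from control by 2.32 ± 0.31 (SE) on the log2 scale, with a limma adjusted p of 0.0116. By day 7 this was 4.85 ± 0.34 with an adjusted p of 1.7e-06, and the step from 3 to 7 days was 2.53 ± 0.34 (adjusted p = 0.000145). The 3-day difference missed the threshold of 0.01 and was called under 6 of 25 alternatives (adjusted p 0.00308 to 0.0926 over all), among them without 3-day liver 1 (0.00308). Summed over the 14 receptors, levels were 17.6 to 26.1 eRPKM in controls, 16.2 to 26.1 after 3 days and 55.7 to 63.8 after 7 days, where Ccr3 made up 47.2% of the group mean.

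The 250 bases before the start of Ccr3 are shown because no other member changed as much. The sequence is from RefSeq on GRCm38.p6 (chr9:124021721-124021970, plus strand), written in the direction of the gene and ending at the base before the start. Capitals mark letters of the kappaB type, at -179 to -171 on the reverse strand.
Ccr3: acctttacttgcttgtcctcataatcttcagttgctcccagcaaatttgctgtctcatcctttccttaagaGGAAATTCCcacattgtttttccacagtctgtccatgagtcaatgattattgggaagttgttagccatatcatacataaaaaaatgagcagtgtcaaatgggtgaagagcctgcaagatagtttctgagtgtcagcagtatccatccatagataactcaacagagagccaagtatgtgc

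Other genes of eosinophils, a list chosen after the values of Ccr3 were seen, did not all move with it. Epx, the eosinophil peroxidase, had at most 3 reads in any library, and the granule proteins Prg2 and Prg3 had at most 9 and 4, with Prg2 at 0, 1.75 and 0 eRPKM in the 7-day livers. Il5ra, the interleukin 5 receptor chain, was 1.09 to 2.03 eRPKM in controls and 1.65 to 2.89 after 7 days (log2 fold change 0.23 ± 0.26, limma adjusted p = 0.529). Siglecf rose from at most 0.203 eRPKM in controls to 0.971 to 1.75 (log2 fold change 1.65, adjusted p = 0.000724), and the ribonucleases Ear1 (2.03) and Ear2 (1.57) also rose. No control liver reached the 0.5 eRPKM of the filter for Siglecf, which entered through induced livers only, so its test is a description. The 9 genes summed to 5.29 to 6.69 eRPKM in controls, 3.64 to 5.6 after 3 days and 14.8 to 19.7 after 7 days. None of the 6 tested was called after 3 days. The basophil and mast cell genes Mcpt8, Fcer1a and Cpa3 had at most 3 reads each in any library. The part of these cells in the change of Ccr3 was not tested.

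Ccr1, a receptor of macrophages and T cells that binds Ccl3 and Ccl5 (chromosome 9, 123876959 to 123883525, minus strand), was near the limit in the other groups, with 0.264, 0.249, 0.427 and 0.548 eRPKM (2 to 4 reads) in controls and 0.514, 0.283, 0.186 and 0.372 (2 to 4 reads) after 3 days. In the 7-day livers it was 7.61, 2.25 and 10.8 eRPKM (119, 39 and 168 reads), above all others, with liver 2 the lowest of them. limma gave Ccr1 a log2 fold change of -0.06 ± 0.37 (SE, adjusted p = 0.97) by day 3, of 2.87 ± 0.40 (adjusted p = 0.000154) by day 7, and of 2.93 ± 0.40 (adjusted p = 0.000175) from day 3 to day 7. Ccr1 and Ccr3 lie within 69.5 kb of chromosome 9. Their calls after 7 days and from 3 to 7 days were kept under all 25 alternatives. Ccr1 passed the filter only through 7-day livers, where it is high, so its tests are a description. On the same chromosome Cxcr6 and Ccr9 were not called, with 7-day log2 fold changes of -0.63 ± 0.33 (limma adjusted p = 0.157) and -0.49 ± 0.27 (adjusted p = 0.182).

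Cxcr4, the receptor of Cxcl12 on most leukocytes and on progenitor cells (chromosome 1, 130484776 to 130488870, minus strand), stood at 0.824, 1.75, 0.889 and 0.428 eRPKM in controls, 1.004, 1.33, 1.16 and 0.29 in 3-day livers and 3.79, 7.64 and 7.35 in 7-day livers. The 7-day livers were above all others. Log2 fold changes against control were -0.02 ± 0.35 (SE) after 3 days (limma adjusted p = 0.987) and 2.21 ± 0.38 after 7 days (adjusted p = 0.000671), and 2.24 ± 0.38 separated 7 from 3 days (adjusted p = 0.000801). The 7-day call was lost among female livers only (adjusted p = 0.0132) and with depth as a covariate (0.014), with adjusted p from 0.000322 to 0.014 over all alternatives.

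Ccr10, the receptor of Ccl27 and Ccl28 on skin-homing and mucosal lymphocytes (chromosome 11, 101034311 to 101036757, minus strand), was 0.722, 0.409, 0.935 and 0.45 eRPKM in controls, 0, 0.31, 0.764 and 0.917 in 3-day livers and 2.31, 2.27 and 1.38 in 7-day livers (13 to 24 reads). The 7-day livers lay above the rest, all of which had at most 6 reads. After 3 days Ccr10 differed from control by -0.27 ± 0.33 (SE) on the log2 scale, with a limma adjusted p of 0.79. By day 7 this was 1.14 ± 0.36 with an adjusted p of 0.0244, and the step from 3 to 7 days was 1.41 ± 0.36 (adjusted p = 0.00979). It was thus called from 3 to 7 days but not against control. That call was lost under 19 of 24 alternatives, among them without any 1 of the controls (adjusted p 0.0111 to 0.0144) or 7-day livers (0.0174 to 0.0419) or without 3-day liver 1 (0.0232) or 2 (0.0245), and adjusted p was 0.00617 to 0.102 over all. Against control it was called without 3-day liver 1 (adjusted p = 0.00977, 0.00977 to 0.148 over all).

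The other 6 tested receptors were not called in any comparison. Cxcr2, the neutrophil receptor for Cxcl1, Cxcl2 and Cxcl5, averaged 8.13 ± 0.767 eRPKM (SD, n = 4) in controls, 6.13 ± 0.977 (n = 4) in 3-day livers and 7.38 ± 0.737 (n = 3) in 7-day livers. Cxcr6, the receptor of Cxcl16 on NK and T cells, averaged 7.62, 4.8 and 4.65 eRPKM in these groups. Cxcr3, the receptor of Cxcl9, Cxcl10 and Cxcl11 on activated T cells, averaged 0.559, 0.795 and 1.02 eRPKM (7-day log2 fold change 0.56, limma adjusted p = 0.417). Cxcr5 of follicular lymphocytes averaged 0.588, 0.449 and 0.767 eRPKM, and Ccr4, a receptor of type 2 and regulatory T cells, 0.898, 0.386 and 0.642. Ccr9, the gut-homing receptor of Ccl25, averaged 1.25, 0.733 and 0.783 eRPKM, and its exons overlap those of Slc6a20a, whose reads cannot be told apart without strand.

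**Figure D2:**
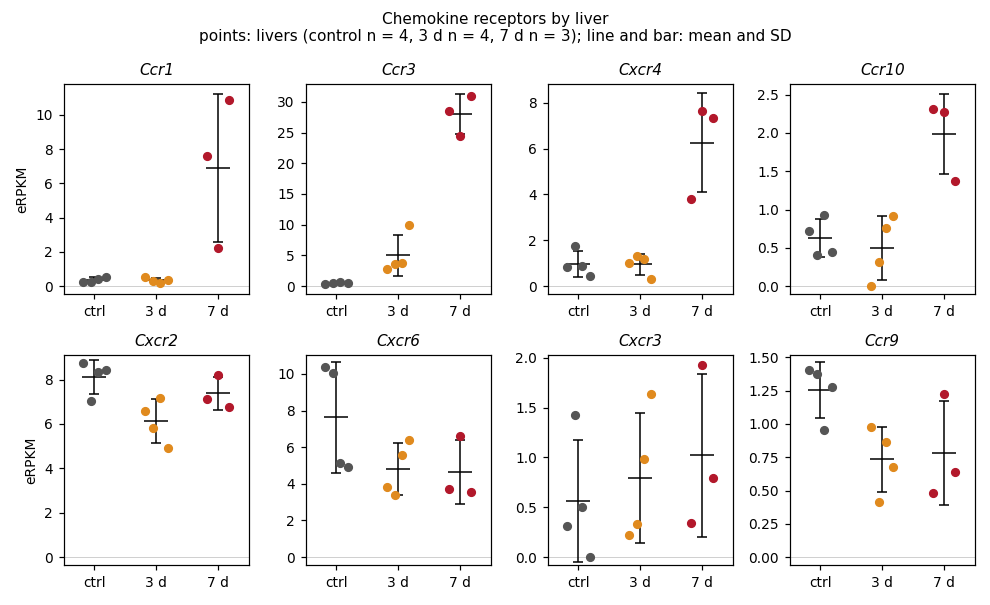
eRPKM of 8 receptors in each liver (points), with the group mean and SD, for control, 3 days and 7 days. Ccr1, Ccr3, Cxcr4 and Ccr10 have every 7-day liver above every control, and of these Ccr3 has every 3-day liver above them too, while Cxcr2, Cxcr6, Cxcr3 and Ccr9 overlap.

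After 7 days some markers of macrophages, and some of other cell types, were also called higher. Over all genes tested, 18% were called higher and 5.77% lower. Summed eRPKM of 5 resident Kupffer cell markers was 157 to 337 in controls, 195 to 374 in 3-day livers and 607 to 634 in 7-day livers, with 4 of 5 called higher (Marco by 3.47). For 8 markers of recruited monocytes or macrophages the sums were 58.6 to 109, 56.8 to 147 and 236 to 251 eRPKM, with 4 of 8 called higher, while the monocyte gene Ly6c2 was 0.932 to 2.91 in controls and 0.226 to 4.48 in 7-day livers. Most of each sum was Lyz2 (52.2 to 99.9 eRPKM in control, 49.2 to 134 in 3-day and 143 to 163 in 7-day livers), which was not called. Chil3, among those called, passed the filter only through 7-day livers, so its test is a description. The 7 neutrophil markers summed to 10.1 to 21.8, 8.67 to 17.7 and 31.3 to 46.2 eRPKM, with 2 of 5 tested called higher (S100a9 and Retnlg). Of 11 T or NK cell markers 1 was called higher (Cd4), and the sums were 3.97 to 14.9, 5.57 to 12.01 and 10.8 to 18.04, with Cd3e at 0 to 1.6 eRPKM in controls and 0.378 to 1.36 in 7-day livers. No marker of B cells (4 tested, sums of 4.4 to 8.8 in controls and 4.79 to 12.8 in 7-day livers) or dendritic cells (5 tested, 7.21 to 16.3 and 12.5 to 27.6) was called. Hepatocyte markers summed to 1136 to 3507 eRPKM in controls and 829 to 934 in 7-day livers, with 2 of 5 called lower (Ttr and Cyp2e1). Cholangiocyte markers summed to 37.6 to 49.1 and 61.6 to 112 (1 of 5 tested called higher), and red cell precursor markers to 45.4 to 108 and 26.9 to 32.7 (1 of 2 tested called lower). Most of each cholangiocyte sum was Spp1 (32.04 to 43.8 eRPKM in controls and 49.9 to 96.2 in 7-day livers), which was not called. No marker of these lists was called after 3 days, and every marker had reads in at least 1 control and 1 7-day liver. The part of these cell types in the receptor and ligand changes was not tested.

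**Figure D3:**
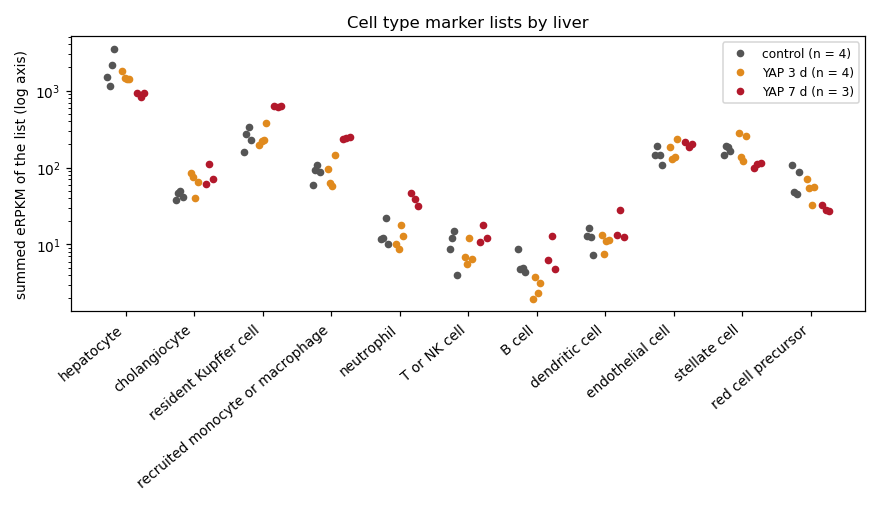
Summed eRPKM of each cell type marker list in each liver (points, log axis) for control, 3 days and 7 days. The 7-day livers lie above all others for resident Kupffer cells (607 to 634), recruited monocytes or macrophages (236 to 251) and neutrophils (31.3 to 46.2), and below all others for hepatocytes (829 to 934) and stellate cells (98.8 to 113).

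Among the monocyte-attracting CC ligands, Ccl2 was called and its neighbours Ccl7 and Ccl12 were not. Ccl2 (chromosome 11, 81849073 to 81850955, plus strand), which draws monocytes out of the blood, was 0.927, 1.75, 3 and 0 eRPKM in controls (0 to 8 reads), 0.903, 0.995, 2.62 and 6.21 in 3-day livers and 15.3, 5.06 and 17.9 in 7-day livers (25 to 79 reads). The 7-day livers lay above all controls, and liver 2 of them was below 3-day liver 4. limma gave Ccl2 a log2 fold change of 0.74 ± 0.64 (SE, adjusted p = 0.673) by day 3, of 2.93 ± 0.69 (adjusted p = 0.00503) by day 7, and of 2.19 ± 0.69 (adjusted p = 0.0262) from day 3 to day 7. The 7-day call was lost under 9 of 25 alternatives (adjusted p 0.00326 to 0.0925 over all), among them without control liver 1 (0.0126) or 4 (0.0124) or without 7-day liver 1 (0.0251) or 3 (0.029). Ccl7 averaged 0.354, 0.614 and 2.22 eRPKM in control, 3-day and 7-day livers, with every 7-day liver above every control (log2 fold change 1.73 ± 0.46, limma adjusted p = 0.0105). Ccl12 averaged 0.247, 0 and 1.33 eRPKM with at most 8 reads (adjusted p = 0.0337). The stretch from Ccl2 to Ccl12 spans 67.8 kb.

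Of the macrophage inflammatory ligands, Ccl6 rose most. Ccl6 (chromosome 11, 83401384 to 83406589, minus strand), a ligand of Ccr1 made by macrophages, was 6.24, 22.4, 21.6 and 12.97 eRPKM in controls, 12.2, 14.2, 12.8 and 40.6 in 3-day livers and 133, 92.9 and 148 in 7-day livers. All 7-day livers were above the rest, and 3-day liver 4 was again above the other 3-day livers. Log2 fold changes against control were 0.29 ± 0.42 (SE) after 3 days (limma adjusted p = 0.825) and 3.07 ± 0.45 after 7 days (adjusted p = 0.000233), and 2.78 ± 0.45 separated 7 from 3 days (adjusted p = 0.000612). Per length, Ccl6 ranked 4 among the ligands in controls and 1 after 7 days, when it made up 30.1% of the summed group means. Sums over the 37 ligands were 222 to 244 eRPKM in controls, 219.8 to 287 in 3-day livers and 344 to 448 in 7-day livers.

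Ccl3 (chromosome 11, 83461346 to 83462857, minus strand), a ligand of Ccr1, was 0.486, 0.459, 0.787 and 1.01 eRPKM in controls (2 to 4 reads), 0, 0.174, 0 and 0.515 in 3-day livers (0 to 3 reads) and 4.01, 3.08 and 4.04 in 7-day livers (29 to 34 reads). The 3-day livers lay within or below the controls, and the 7-day livers above all. After 3 days Ccl3 differed from control by -0.86 ± 0.28 (SE) on the log2 scale, with a limma adjusted p of 0.226. By day 7 this was 1.85 ± 0.30 with an adjusted p of 0.000477, and the step from 3 to 7 days was 2.70 ± 0.30 (adjusted p = 4.42e-05). The 7-day call was lost with a pseudocount of 0.1 (adjusted p = 0.0111) and after quantile normalization (0.0165), with adjusted p from 0.000116 to 0.0165 over all alternatives.

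Ccl4 and Ccl5, of the same family, had every 7-day liver above every control without being called. Ccl4 (chromosome 11, 83476086 to 83478185, plus strand) was 0.377, 1.34, 0 and 0 eRPKM in controls, 1.66, 0.81, 0 and 0.799 in 3-day livers and 3.84, 2.22 and 1.66 in 7-day livers, with at most 14 reads. limma gave Ccl4 a log2 fold change of 0.55 ± 0.49 (SE, adjusted p = 0.691) by day 3, of 1.89 ± 0.53 (adjusted p = 0.0139) by day 7, and of 1.34 ± 0.53 (adjusted p = 0.0653) from day 3 to day 7. After 7 days it was called under 4 alternatives, among them without control liver 2 (adjusted p = 0.00377) or 3-day liver 3 (0.00591), with adjusted p from 0.00377 to 0.18 over all. Ccl5 (chromosome 11, 83339280 to 83344020, minus strand), made by T and NK cells, was 0.469, 1.99, 1.52 and 1.46 eRPKM in controls, 2.74, 0.504, 1.49 and 1.99 in 3-day livers and 2.73, 7.68 and 2.06 in 7-day livers, the second of which stood apart. Log2 fold changes against control were 0.19 ± 0.45 (SE) after 3 days (limma adjusted p = 0.901) and 1.21 ± 0.48 after 7 days (adjusted p = 0.0644), and 1.02 ± 0.48 separated 7 from 3 days (adjusted p = 0.115).

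Ccl9, another macrophage ligand of Ccr1 (chromosome 11, 83386421 to 83392138, minus strand), was already abundant in controls. It was 57.03, 52.8, 42.6 and 48.5 eRPKM in controls, 70.3, 86.9, 82.03 and 75.7 in 3-day livers and 111, 62.6 and 83.7 in 7-day livers. Every induced liver at either time lay above every control, and the 3-day and 7-day livers overlapped. After 3 days Ccl9 differed from control by 0.65 ± 0.17 (SE) on the log2 scale, with a limma adjusted p of 0.132. By day 7 this was 0.73 ± 0.19 with an adjusted p of 0.00771, and the step from 3 to 7 days was 0.09 ± 0.19 (adjusted p = 0.734). The 7-day call was lost under 15 of 25 alternatives, among them without any 1 of the controls (adjusted p 0.0104 to 0.0242), without 3-day liver 2 (0.0105) or 4 (0.0108), or without 7-day liver 1 (0.0488) or 3 (0.0302). With median-ratio size factors the change was 0.47 (adjusted p = 0.0969), and adjusted p was 0.00146 to 0.0969 over all. Ccl5, Ccl9, Ccl6, Ccl3 and Ccl4 lie within 139 kb of chromosome 11.

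Ccl24, an eotaxin made by macrophages that binds Ccr3 (chromosome 5, 136045807 to 136048913, minus strand), was 1.74, 3.01, 4.07 and 4.21 eRPKM in controls, 0.565, 4.15, 5.73 and 3.48 in 3-day livers and 37.4, 32.8 and 41.95 in 7-day livers. The 3-day livers spanned the control range, and the 7-day livers lay far above it. limma gave Ccl24 a log2 fold change of -0.12 ± 0.45 (SE, adjusted p = 0.944) by day 3, of 3.38 ± 0.49 (adjusted p = 0.000192) by day 7, and of 3.50 ± 0.49 (adjusted p = 0.000198) from day 3 to day 7. Its calls after 7 days and from 3 to 7 days were kept under all 25 alternatives, while the direction after 3 days turned in 4 of them. Ccl17, which binds Ccr4, averaged 0.207, 0.256 and 1.11 eRPKM in control, 3-day and 7-day livers with at most 6 reads (7-day adjusted p = 0.0736).

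None of the 4 tested ligands of lymphoid and barrier tissues was called. Ccl25, the ligand of Ccr9, averaged 2.85 ± 0.727 eRPKM (SD, n = 4) in controls, 2.38 ± 0.558 (n = 4) in 3-day livers and 2.42 ± 0.493 (n = 3) in 7-day livers. Ccl27a averaged 4.21, 4.66 and 3.03 eRPKM in these groups, its exons overlap those of Il11ra1, and the mouse genome holds similar copies of it. Ccl28 averaged 0.604, 0.621 and 0.807 eRPKM. Ccl1, the ligand of Ccr8, had at most 2 reads in any liver and was at 0 in all 3-day livers.

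**Figure D4:**
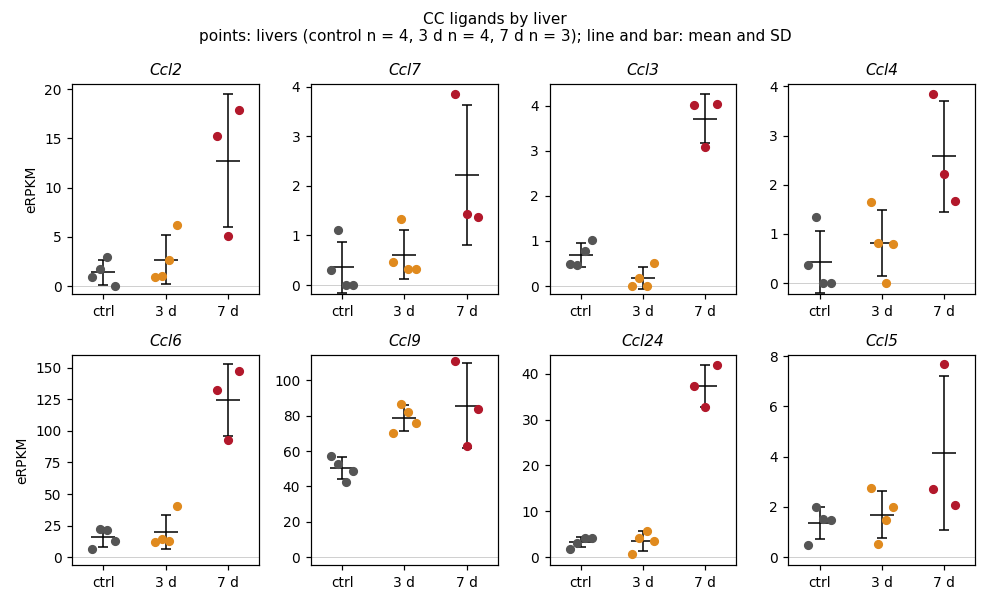
eRPKM of 8 CC ligands in each liver (points), with the group mean and SD, for control, 3 days and 7 days. Ccl6 (92.9 to 148) and Ccl24 (32.8 to 41.95) stand far above both other groups after 7 days, and Ccl9 is above all controls at either time.

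The CXC ligands of neutrophils, which carry an ELR motif and bind Cxcr2, were not called. Cxcl1 ranged from 4.09 to 80.1 eRPKM among the controls and was 9.997 to 52.5 in 3-day livers and 7.05 to 16.4 in 7-day livers (log2 fold change -1.19 ± 0.78, limma adjusted p = 0.253). Cxcl2 averaged 0.324, 0.194 and 0.754 eRPKM with at most 12 reads, Cxcl5 0.462, 0.135 and 0.3 with at most 8, and Cxcl15 0.939, 0.344 and 0.455 with at most 10. None of these 3 was called in any comparison at this depth. Every 7-day liver lay above every 3-day liver for Cxcl2, with a step of 0.87 ± 0.33 (SE, limma adjusted p = 0.0551).

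The interferon-induced ligands of Cxcr3, which guide activated T and NK cells, did not all pass the test. Cxcl9 (chromosome 5, 92750357 to 92757105, minus strand) was 8.66, 17.2, 14.4 and 5.07 eRPKM in controls, 7.52, 2.85, 8.26 and 15.3 in 3-day livers and 1.37, 3.14 and 1.82 in 7-day livers. All 7-day livers lay below all controls, and the highest of them was just above the lowest 3-day liver. Log2 fold changes against control were -0.46 ± 0.46 (SE) after 3 days (limma adjusted p = 0.722) and -2.10 ± 0.49 after 7 days (adjusted p = 0.00515), and -1.64 ± 0.49 separated 7 from 3 days (adjusted p = 0.0221). The 7-day call was lost under 6 of 25 alternatives, namely with the replicate block (adjusted p = 0.0188), without control liver 1 (0.01005), 2 (0.0147) or 3 (0.0158), or without 7-day liver 1 (0.0272) or 3 (0.0223), with adjusted p from 0.000369 to 0.0272 over all. The step from 3 to 7 days was called under 4 alternatives, among them female livers only (adjusted p = 0.00297) and the fit without 3-day liver 2 (0.00504), with adjusted p from 0.00177 to 0.0844 over all.

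Cxcl11 (chromosome 5, 92788570 to 92794511, minus strand) was 3.46, 5.01, 3.06 and 3.92 eRPKM in controls, 2.07, 2.2, 4.16 and 2.83 in 3-day livers and 1.14, 1.65 and 1.62 in 7-day livers, so that the 7-day livers were below both other groups. After 3 days Cxcl11 differed from control by -0.42 ± 0.25 (SE) on the log2 scale, with a limma adjusted p of 0.535. By day 7 this was -1.14 ± 0.27 with an adjusted p of 0.00555, and the step from 3 to 7 days was -0.72 ± 0.27 (adjusted p = 0.0548). Its 7-day call was lost under 10 of 25 alternatives (adjusted p 9.24e-05 to 0.0323 over all), among them without any 1 of the 7-day livers (0.0147 to 0.0323) or without control liver 1 (0.0115), 2 (0.0154) or 4 (0.0106). Cxcl10, which lies between them, averaged 4.56 ± 2.06 eRPKM (SD, n = 4) in controls, 5.49 ± 1.32 (n = 4) in 3-day livers and 6.29 ± 0.691 (n = 3) in 7-day livers. It was not called, with a 7-day log2 fold change of 0.52 ± 0.32 (limma adjusted p = 0.224). After quantile normalization the step of Cxcl11 from 3 to 7 days was called (adjusted p = 0.000835, 0.000835 to 0.183 over all alternatives). Exons of Cxcl10 overlap those of Art3, those of Cxcl11 overlap Gm2673, and the 3 ligands lie within 44.15 kb.

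The 250 bases before the starts of Cxcl9 and Cxcl10 are shown because only the former of these neighbours was called. They are RefSeq sequences on GRCm38.p6, Cxcl9 at chr5:92328080-92328329, minus strand and Cxcl10 at chr5:92348890-92349139, minus strand, written in the direction of the gene. Capitals mark letters of the kappaB or the interferon (ISRE) type. In Cxcl9 the former stand at -130 to -122 and -42 to -34 and the latter at -175 to -167, and in Cxcl10 they stand at -158 to -150 (reverse strand) and -213 to -205.
Cxcl9: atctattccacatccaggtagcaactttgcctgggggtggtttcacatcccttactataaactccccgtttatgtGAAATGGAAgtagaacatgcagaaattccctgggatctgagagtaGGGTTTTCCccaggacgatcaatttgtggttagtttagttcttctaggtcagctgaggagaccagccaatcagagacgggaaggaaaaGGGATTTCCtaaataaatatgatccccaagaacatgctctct
Cxcl10: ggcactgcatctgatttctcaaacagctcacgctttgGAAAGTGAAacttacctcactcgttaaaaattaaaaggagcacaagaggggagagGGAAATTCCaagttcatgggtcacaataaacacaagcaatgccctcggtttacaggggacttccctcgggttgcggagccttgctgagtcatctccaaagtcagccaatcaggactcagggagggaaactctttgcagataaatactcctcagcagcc

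Cxcl14, a ligand made by epithelia (chromosome 13, 56390008 to 56397912, minus strand), lay below control after 3 days, without a call, and above it after 7 days. It was 1.91, 2.03, 3.09 and 4.25 eRPKM in controls (10 to 21 reads), 1.6, 0.293, 0.144 and 1.16 in 3-day livers (1 to 8 reads) and 27.4, 8.49 and 32.7 in 7-day livers (95 to 327 reads). All 3-day livers were below all controls and all 7-day livers above. limma gave Cxcl14 a log2 fold change of -1.47 ± 0.47 (SE, adjusted p = 0.214) by day 3, of 2.67 ± 0.50 (adjusted p = 0.00128) by day 7, and of 4.13 ± 0.50 (adjusted p = 7.66e-05) from day 3 to day 7. Of the 25 alternatives, 1 lost the 7-day call, quantile normalization (2.23, adjusted p = 0.0114), and adjusted p was 0.000555 to 0.0114 over all.

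The 250 bases before the start of Cxcl14 are shown because its difference between 3 and 7 days was the largest of the 38 tested members. They are from RefSeq on GRCm38.p6 (chr13:56296552-56296801, minus strand), with capitals for letters of the interferon (ISRE) type at -172 to -164.
Cxcl14: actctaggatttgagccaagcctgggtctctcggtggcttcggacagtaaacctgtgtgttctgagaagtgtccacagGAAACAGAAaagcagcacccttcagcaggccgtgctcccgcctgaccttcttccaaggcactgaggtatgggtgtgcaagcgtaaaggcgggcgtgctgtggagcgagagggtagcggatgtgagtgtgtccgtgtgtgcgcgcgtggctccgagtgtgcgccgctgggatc

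Cxcl12, the ligand of Cxcr4 made by stellate and endothelial cells (chromosome 6, 117118553 to 117131385, plus strand), was the highest ligand per length in controls. It was 63.8, 70.9, 76.7 and 59.6 eRPKM in controls, 68.1, 70.2, 85.9 and 68.6 in 3-day livers and 50.9, 50.1 and 47.9 in 7-day livers. The 7-day livers lay below all other livers. Log2 fold changes against control were 0.11 ± 0.13 (SE) after 3 days (limma adjusted p = 0.765) and -0.44 ± 0.14 after 7 days (adjusted p = 0.0249), and -0.55 ± 0.14 separated 7 from 3 days (adjusted p = 0.00917). Only the step from 3 to 7 days was called, while with median-ratio size factors the 7-day change against control was called too (-0.71, adjusted p = 0.00227, 0.00227 to 0.0922 over all alternatives). Over the 1550 genes with a mean of 40 to 100 eRPKM the median step from 3 to 7 days was -0.28. The call of Cxcl12 from 3 to 7 days was lost under 15 of 25 alternatives, among them without any 1 of the induced livers (adjusted p 0.014 to 0.0448) or without control liver 1 (0.0142), 2 (0.0121) or 3 (0.0116), with adjusted p from 0.00133 to 0.0702 over all. Markers of stellate cells summed to 145 to 188 eRPKM in controls, 122 to 279 in 3-day livers and 98.8 to 113 in 7-day livers (1 of 7, Reln, called lower, both against control and from 3 to 7 days). Those of endothelial cells summed to 109 to 193, 128 to 234 and 183 to 218 (2 of 6 called higher against control). From 3 to 7 days 2 of 6 were called higher (Cdh5 and Lyve1) and 1 lower, Clec4g of the sinusoidal endothelium (-1.11, limma adjusted p = 0.00805), with all 7-day livers below all 3-day livers. Over all genes, 18% were called higher and 5.77% lower against control, and 14% and 5.31% from 3 to 7 days. The part of stellate and endothelial cells in the step of Cxcl12 was not tested.

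Cxcl16, the ligand of Cxcr6 (chromosome 11, 70267485 to 70273486, minus strand), was 8.43, 14.3, 8.79 and 9.36 eRPKM in controls, 15.7, 8.85, 8.62 and 22.7 in 3-day livers and 16.6, 29.6 and 22.8 in 7-day livers. Every 7-day liver lay above every control, and the 3-day livers overlapped both groups. After 3 days Cxcl16 differed from control by 0.35 ± 0.30 (SE) on the log2 scale, with a limma adjusted p of 0.673. By day 7 this was 1.13 ± 0.33 with an adjusted p of 0.0162, and the step from 3 to 7 days was 0.78 ± 0.33 (adjusted p = 0.0809). After 7 days it was called without 3-day liver 4 (adjusted p = 0.00699) and in a fit of control and 7-day livers only (0.00414), with adjusted p from 0.00414 to 0.13 over all alternatives. With the MF suffix as a covariate its step from 3 to 7 days was called (adjusted p = 0.00797, 0.00797 to 0.271 over all). Its exons overlap those of Zmynd15. Cxcl13, the ligand of Cxcr5, varied widely, from 0.668 to 8.32 eRPKM in controls, 1.15 to 15.2 in 3-day livers and 4.72 to 12.8 in 7-day livers (7-day adjusted p = 0.231). Cxcl17 averaged 1.41, 1.67 and 1.06 eRPKM in these groups, with at most 8 reads.

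Cx3cl1, the membrane-bound chemokine that holds monocytes (chromosome 8, 97295909 to 97306323, plus strand), was 0.317, 0.505, 0 and 0.247 eRPKM in controls (0 to 9 reads), 0.695, 0.425, 0.587 and 0.419 in 3-day livers and 1.04, 1.97 and 1.69 in 7-day livers (18 to 38 reads). The 7-day livers lay above both other groups. limma gave Cx3cl1 a log2 fold change of 0.46 ± 0.27 (SE, adjusted p = 0.512) by day 3, of 1.44 ± 0.29 (adjusted p = 0.0018) by day 7, and of 0.98 ± 0.29 (adjusted p = 0.0191) from day 3 to day 7. Its 7-day call was lost among female livers only (adjusted p = 0.0206), with depth as a covariate (0.0247) and without 7-day liver 3 (0.0108), with adjusted p from 0.00121 to 0.0247 over 24 alternatives. Its receptor Cx3cr1 was 1.46 to 2.27 eRPKM in controls, 0.848 to 2.44 in 3-day livers and 6.47 to 18.8 in 7-day livers (log2 fold change 2.45 ± 0.36, limma adjusted p = 0.000202). Xcl1, the lymphotactin of T and NK cells, had at most 4 reads in any liver.

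**Figure D5:**
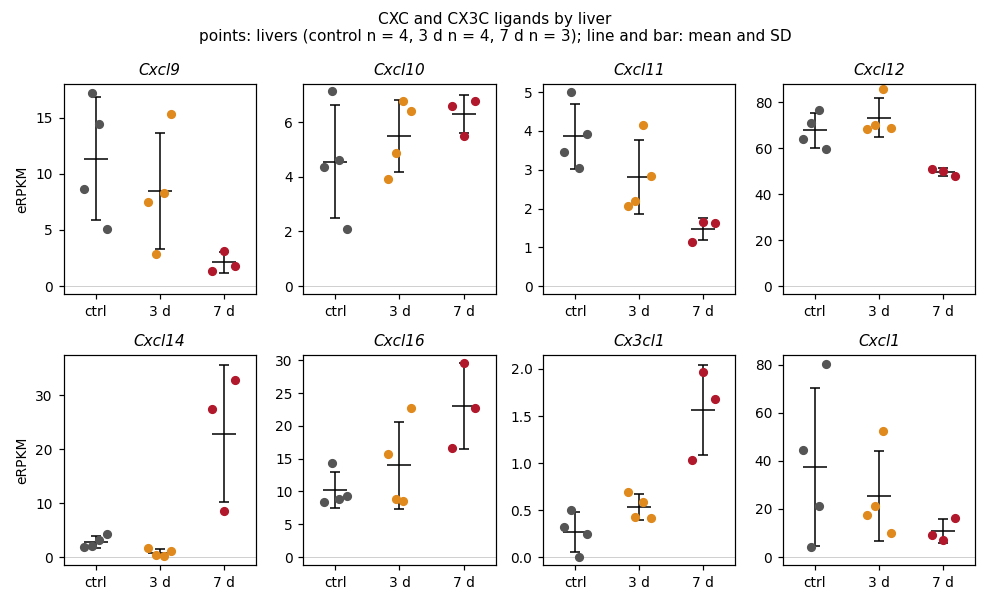
eRPKM of 7 CXC ligands and Cx3cl1 in each liver (points), with the group mean and SD, for control, 3 days and 7 days. After 7 days Cxcl9 and Cxcl11 lie below all controls and Cxcl10 does not, Cxcl14 lies below all controls after 3 days and above them after 7 days, and Cxcl1 ranges from 4.09 to 80.1 among controls.

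Of the 13 members under the filter, 10 had reads in at least 1 liver and at most 11. Among receptors these were Ccr6 (0.933 eRPKM, 11 reads at most), Ccr7 (0.934 eRPKM, 7 reads), Ccr8 (0.423 eRPKM, 3 reads) and Cxcr1 (0.581 eRPKM, 4 reads). Among ligands they were Ccl22 (0.991 eRPKM, 11 reads at most), Ccl11 (0.928 eRPKM, 4 reads), Ccl8 (0.69 eRPKM, 2 reads), Ccl26 (0.648 eRPKM, 1 read), Cxcl3 (0.359 eRPKM, 2 reads) and Ccl20 (0.129 eRPKM, 1 read). A count of 0 allows up to 0.235 to 1.12 eRPKM for Ccr6, 0.248 to 1.18 for Ccr7, 0.423 to 2.01 for Ccr8 and 0.435 to 2.07 for Cxcr1, from the deepest to the shallowest library. For the ligands these limits were 0.27 to 1.28 for Ccl22, 0.456 to 2.17 for Ccl11, 0.958 to 4.55 for Ccl8, 1.74 to 8.25 for Ccl26, 0.483 to 2.3 for Cxcl3 and 0.344 to 1.64 for Ccl20. Ccl19, Ccl21c and Ccl27b had 0 reads in every liver, which by annotated exon length allows 0.564 to 2.68, 0.564 to 2.68 and 0.523 to 2.49 eRPKM. These 3 genes have near-identical copies in the mouse genome, so their level is uncertain.

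In lists of the wider pathway all calls after 7 days were rises, as were 75.7% of the calls over all genes. Of all genes 18% were called higher and 5.77% lower, so short lists without a fall are a description. Of 12 genes listed with the wider chemokine system (ligands and receptors named otherwise, and decoy receptors) 4 rose and none fell. Pf4, a chemokine of platelets and macrophages, rose most (3.51 ± 0.36 on the log2 scale, limma adjusted p = 1.75e-05), and Cmklr1, Cx3cr1 and Ccr1l1 also rose, while the lowest was Ackr4, a receptor that removes chemokines (-0.60 ± 0.26, adjusted p = 0.088). Ccr1l1 passed the filter only through 7-day livers, where it is high, so its test is a description. Of 16 genes that carry the signal below the receptors in leukocytes 15 rose, led by Itgb2, a chain of the integrins that chemokines activate (3.27 ± 0.32, adjusted p = 1.34e-05). The exception was Gnai3, an inhibitory G protein subunit (-0.54 ± 0.17, adjusted p = 0.0238), which was called lower from 3 to 7 days (-0.69, adjusted p = 0.00746). Of 7 proteases that trim chemokines 3 rose, Mmp9 (4.61 ± 0.48, adjusted p = 2.11e-05), Adam10 and Adam17, and none fell. Median log2 fold changes were 0.52, 2.12 and 0.82 for the 3 lists, beside 0.26 over all genes. None of these genes was called after 3 days.

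RefSeq windows of 250 bases before the start were matched by symbol for 36 members (43 windows) and searched on both strands, beside 32851 windows of all genes. GGAATG, the core letters of sites for TEAD, the DNA-binding partners of YAP, stood in 6 member windows (13.95%) and in 12.6% of all windows. These were Ccl17, Ccl20, Ccr6, Cxcl3, Cxcl13 and Cxcr2. GGNNTTTCC, letters of the kappaB type, stood in 8 member windows (18.6%) and in 4.93% of all, those of Ccl9, Ccl20, Ccr3, Cxcl1, Cxcl2, Cxcl3, Cxcl9 and Cxcl10. GAAANNGAA, letters of the interferon type, stood in 7 member windows (16.3%) and in 7.13% of all, those of Ccl1, Ccl3, Ccl19, Cxcl9, Cxcl10, Cxcl14 and Cxcr1. A match describes letters only, and regions farther from the start were not searched. Members without a matched window, among them Ccl2, Ccl24, Ccr10 and Cxcl11, were not searched.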

How the data were processed

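The deposited table holds 1 eRPKM value per gene and liver, a kind of RPKM that the authors computed from reads on exons. Read pairs were aligned to mm9 without strand, and the submitters' processing notes name TopHat2 2.0.8, featureCounts 1.4.5-p1 and DESeq2. How duplicate and multiply mapped reads were treated is not given in the sources used here. Columns of the authors' own DESeq2 comparison of 7 days with control (mean signal, log2 fold change, adjusted p-value) were not used.

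Groups came from the sample titles. Testing was two-sided, in limma 3.58.1 under R 4.3.3 with a mean trend, on log2 of eRPKM plus a pseudocount of 0.5. A gene entered when 3 libraries or more reached 0.5 eRPKM, which left 14244, and 1 fit held all groups, with Benjamini-Hochberg adjustment over all of them. The labels name each replicate as a separate sample only. The p-values set a group difference against the spread between these livers, which may be partly technical. Whole reads were recovered from the value steps, and each of the 177553 nonzero values (100%) lay at most 0.001 from a whole number of reads. They served for depth, limits of 3 reads and 1 alternative fit. GENCODE M1 on mm9 gave gene positions and showed which exons overlap. The fit was tested on simulated data.

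Members and lists were chosen with earlier results of these data known, and the eosinophil, basophil and mast cell genes after values had been seen. Every tested member is named. Values per liver are given for members called in any comparison, and for tested members with a mean of at least 1 eRPKM whose induced livers at 1 time all lie on 1 side of all controls. Of other lists, counts, the largest change in each direction and defining markers are given. Of the receptors, 2 are not reported here and enter no count of members. Alternatives covered the pseudocount, filter, scaling, call rule, replicate block, covariates, sex, groups in the fit, test and each liver left out. Tables and figures were made with pandas 2.3.3, numpy 2.4.6 and matplotlib 3.10.9 in Python 3.11.15.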

Additional observations from a re-analysis of the deposited data

Results flagged for a closer look

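In 34 sets of 4 livers (control or 3 days, for the 17 members described per liver), 4 had 1 liver far from the other 3 by Dixon's ratio of gap to range at its 95% limit, which independent normal values pass in about 5% of sets. At 3 days these were Ccl6 (ratio 0.930), Ccr3 (0.870) and Cxcl12 (0.885), with 3-day liver 4 as the high one for Ccl6 and Ccr3 and 3-day liver 3 for Cxcl12. In controls it was Cxcl16 (0.841), with control liver 2 as the high one. The 34 sets share livers and hold untransformed eRPKM of members chosen by their values, so the 5% cannot be set against their number.

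The change against control differed between 3 and 7 days, by limma's test of 7 days against 3 days, for 9 members. The log2 difference was 4.13 for Cxcl14, 3.50 for Ccl24, 2.93 for Ccr1, 2.78 for Ccl6, 2.70 for Ccl3, 2.53 for Ccr3, 2.24 for Cxcr4 and 1.41 for Ccr10, and it was -0.55 for Cxcl12.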

How the results depend on the processing

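The number of members called after 3 days was 0 and became 1 with a pseudocount of 0.1, with median-ratio size factors, after quantile normalization, with robust eBayes, with log2 Xist as a covariate and when any fold change at an adjusted p below 0.05 counted. It was 0 to 1 with 1 liver left out, and 1 without 3-day liver 1. The 12 members called after 7 days became 7 with log2 depth as a covariate and 7 among female livers only, and were 7 to 13 with 1 liver left out, lowest without 7-day liver 3. The 9 called from 3 to 7 days stayed within 7 to 13 over all alternatives. Of the member calls after 7 days, 83.3% were rises with the deposited scaling, 75.0% with size factors and 63.6% after quantile normalization (75.7%, 60.8% and 51.0% over all genes). The 2 members called lower became 0 with the replicate block and without control liver 1 or 2 or 7-day liver 1 or 3, where all member calls were rises. The median 7-day log2 fold change of all genes was 0.26, 0.03 and -0.06 under these scalings.

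No called change reversed under the alternatives run. Directions turned for 3-day changes that had not been called and for Ccl9 from 3 to 7 days. With the MF suffix of the labels as a covariate the 3-day log2 fold changes were 0.35 for Ccl24, -0.42 for Ccl5, 0.20 for Ccr1, -0.0883 for Cxcl16 and 0.0835 for Cxcr4. Among female livers they were 0.31 for Ccl24, -0.25 for Ccl4, -0.0125 for Ccl5 and 0.23 for Ccr10. After quantile normalization they were 0.23 for Ccr1, -0.00422 for Cxcl12 and 0.13 for Cxcr4. With log2 depth as a covariate Ccr1 was 0.0321, and with size factors Ccl9 was -0.16 from 3 to 7 days. With 1 liver left out the 3-day change ranged over -0.42 to 0.43 for Ccl24, -0.0987 to 0.52 for Ccl5, -0.11 to 0.50 for Ccl6, -0.15 to 0.0369 for Ccr1, -0.47 to 0.0296 for Ccr10 and -0.22 to 0.25 for Cxcr4, and that of Ccl9 from 3 to 7 days over -0.12 to 0.29. The cause was not tested.

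Replicate numbers are shared between the groups. Deviations from the group means correlated at -0.222 to 0.269 for same-numbered livers and at -0.275 to 0.238 for others. Between control and 3-day livers the correlation was positive within a sex and negative across sexes. The check thus cannot decide whether the numbers pair the livers. With the number as a block, 0 members were called after 3 days, 9 after 7 days and 7 from 3 to 7 days.

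Depth limits the low members: 11 tested members stayed under 2 eRPKM in every liver, and 13 were not tested. Sex and depth moved with the 7-day group, and the female-only and depth counts above bear on them.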
